A study of Mus musculus with 304 samples.

Results

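The genes Grin1, Grin2a, Grin2b, Grin2c, Grin2d and Grin3a encode subunits of the NMDA receptor, and they were followed by name through single granule cells of the dentate gyrus of the mouse. They are 6 of the 22800 genes in the table, chosen by the name of the gene family. Grin3b, the remaining subunit gene, is given beside them only where its reads bear on a statement. The study drew the cytosol of single cells into a patch pipette and sequenced each as its own library (Patch-seq). In the kainate experiment, 70 nl of 5 mM kainic acid, a glutamate receptor agonist that provokes seizures, was injected into the hippocampus. Cells came from the injected side 1 day later (label KA1_DG_ipsi, 58 cells, "day 1 cells"), from 14 days later with no side labelled (Kainate_DG, 29 cells, "day 14 cells") and from mice that received no injection (DG, 31 cells, "control cells"). In the virus experiment, cells were sampled 1 month after injection of an adeno-associated virus (AAV) that carried Id2, an inhibitor of DNA binding by basic helix-loop-helix factors (Id2_OE, 71 cells, "Id2 cells"), or GFP, a fluorescent marker protein (GFP_Control, 59 cells, "GFP cells"). The labels give no strain, age, promoter, virus serotype or animal. Each group is therefore 1 sample here, and differences between groups carry no test.

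NMDA receptors are glutamate-gated, calcium-permeable channels of the excitatory synapse that open only when an agonist is bound and the membrane is depolarised enough to release a magnesium block. Each assembly needs the obligatory GluN1 subunit, made from Grin1, which binds glycine or D-serine, together with GluN2 subunits, which bind glutamate and set the channel's kinetics. In forebrain neurons GluN2B, from Grin2b, prevails early in life and GluN2A, from Grin2a, gains share after birth. GluN2C, from Grin2c, is best known from cerebellar granule cells, and GluN2D, from Grin2d, from embryonic brain and interneurons. GluN3A, from Grin3a, binds glycine and lowers calcium entry, and is most abundant in the young brain. In the dentate gyrus these receptors act at perforant path synapses on granule cells and take part in their long-term potentiation.

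All 6 genes lie on the minus strand of GRCm38. Grin1 (ENSMUSG00000026959.13) spans chr2:25291181-25319187, Grin2a (ENSMUSG00000059003.12) chr16:9567898-9995560 and Grin2b (ENSMUSG00000030209.14) chr6:135713233-136173511. Grin2c (ENSMUSG00000020734.13) spans chr11:115249169-115267243, Grin2d (ENSMUSG00000002771.12) chr7:45831883-45878378 and Grin3a (ENSMUSG00000039579.15) chr4:49661611-49845744. Between any 2 of the 6 coding sequences the longest identical run was 34 bases, between Grin2b and Grin2c.

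The promoter of Grin1, the subunit every receptor contains, is shown because Id2 acts on factors that bind E-boxes (CANNTG, which reads the same on both strands). The RefSeq window of GRCm38.p6 runs 250 bases before to 50 bases after the start of the gene at chr2:25319138-25319437, minus strand, with E-boxes in capitals.
Grin1 promoter: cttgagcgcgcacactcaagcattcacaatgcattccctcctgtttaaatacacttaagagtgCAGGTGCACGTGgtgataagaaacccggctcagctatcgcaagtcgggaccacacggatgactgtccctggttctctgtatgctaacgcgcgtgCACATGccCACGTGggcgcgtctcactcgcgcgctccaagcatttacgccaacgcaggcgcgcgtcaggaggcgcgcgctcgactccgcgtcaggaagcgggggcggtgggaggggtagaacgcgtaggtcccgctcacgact
This window held 4 E-boxes, of which 2 adjoin without overlap, and 1 GC box (GGGCGG on either strand). Promoter windows were given for 3 of the 6 genes. That of Grin2d held 1 E-box and that of Grin2c held 0. Among all 32851 promoter windows of this length, 72.3% held an E-box, 35.7% a GC box and 1.79% a CRE (TGACGTCA), so an E-box in such a window is the usual case.

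Levels are given as CPM, a gene's reads scaled by the total count, of the counts summed over the cells of a group. Reads per cell had a median of 6834546 at day 1, 7615492 at day 14, 1738610 in control cells, 3317227 in Id2 cells and 3957794 in GFP cells. Transcripts of Slc17a7, a vesicular glutamate transporter, were found in 92.3% of the 248 cells and Prox1, a transcription factor of granule cells, in 72.6%. Gad2 and Slc32a1, defining genes of inhibitory neurons, were found in 10.1% and 4.84%. Gad2 was found in 20.7% of day 1 cells, 27.6% of day 14 cells and 6.45% of control cells, and its summed level was 29.6, 111.3 and 0.104 CPM in the same order. Gad1, which makes GABA and is the most abundant gene of the 11 interneuron markers in the kainate experiment, had reads in 94.8% of day 1 cells, 96.6% of day 14 cells and 74.2% of control cells. The 11 interneuron markers summed to 733 CPM at day 1 (single cells 0 to 5633), 1348 CPM at day 14 (0.131 to 6472), 862 CPM in control cells (0 to 3262), 709 CPM in Id2 cells (0.194 to 2790) and 862 CPM in GFP cells (1.11 to 3350). The 14 granule cell markers summed to 1838 CPM at day 1 (single cells 5.82 to 5672), 1585 CPM at day 14 (479 to 4411), 3922 CPM in control cells (0.779 to 8443), 2963 CPM in Id2 cells (5.42 to 10563) and 4189 CPM in GFP cells (257 to 7752). The 14 microglia markers summed to 759 CPM at day 1 (0 to 24613), 6365 CPM at day 14 (0 to 26276), 3515 CPM in control cells (0 to 14763), 599.7 CPM in Id2 cells (0 to 9772) and 175 CPM in GFP cells (0 to 8177). At least 1000 CPM of them were found in 8, 20 and 17 cells at day 1, at day 14 and in controls, and in 11 Id2 and 2 GFP cells. Of the 14, P2ry12 had 0 reads at day 1, and all had reads in the other 4 groups. The titles of the kainate cells and of the control cells run in separate series, so treatment and any difference in handling between these series cannot be told apart. In bulk sums over cells such as these, fewer expressing cells and less RNA per cell cannot be told apart, so the share of cells with a read and the median cell are given as well.

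**Figure D1:**
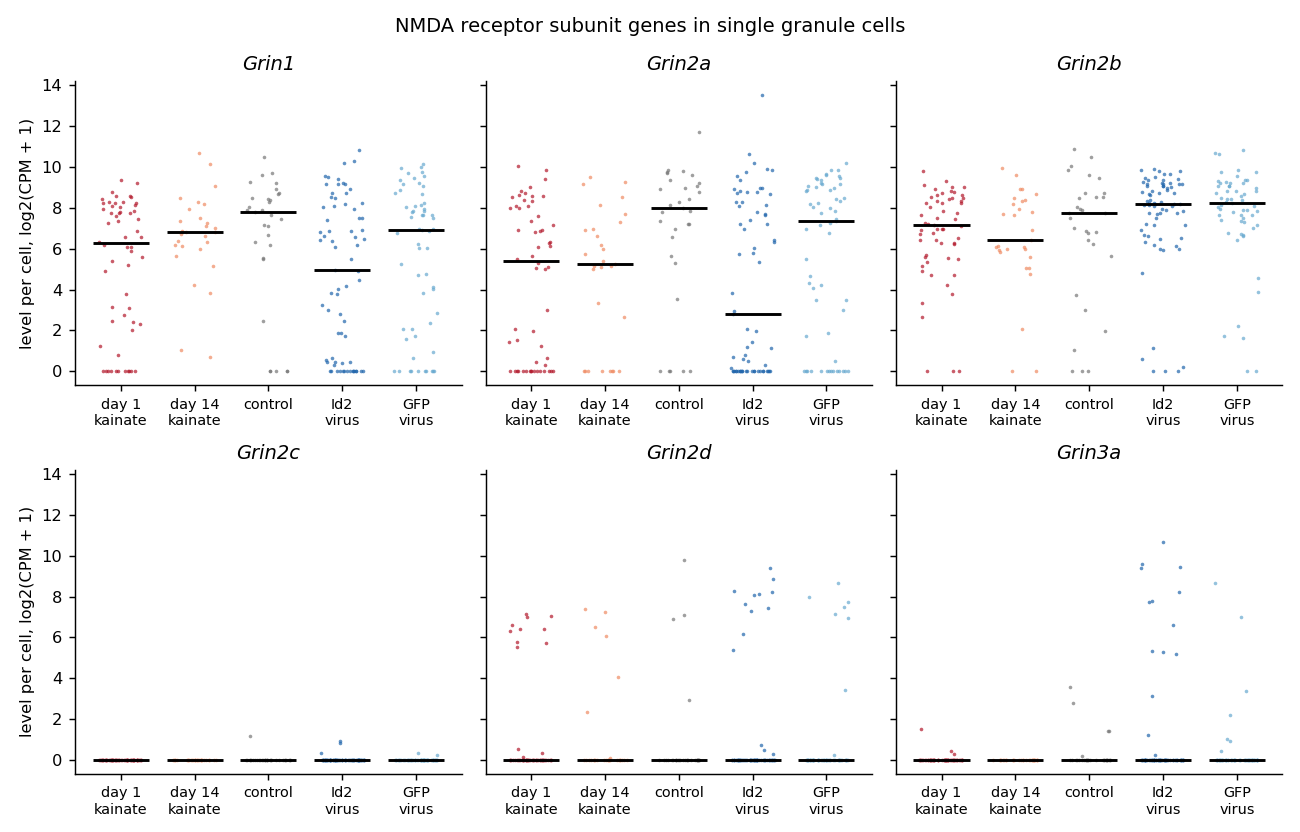
Level of each subunit gene in each cell, as log2(CPM + 1), by group, with black lines at the group medians. Grin1, Grin2a and Grin2b spread from 0 to 8 or more within every group except for Grin1 at day 14, where all 29 cells had reads, and Grin2c lay at or near 0 throughout.

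Grin1, Grin2a and Grin2b made up most NMDA receptor reads in each group. Per kb of exon, Grin1 led in each group, at 16.9 CPM per kb at day 1, 21.7 at day 14, 30.97 in control cells, 18.3 in Id2 cells and 23.2 in GFP cells. Grin2a stood at 10.2, 6.52, 14.7, 14.8 and 15.5 CPM per kb of exon in the same order of groups, and Grin2b at 10.8, 6.31, 11.4, 12.6 and 15.7. Grin2d stood between 1.88 and 10.9 CPM per kb of exon. The order depends on the length used, since per kb of coding sequence Grin2b was higher than Grin1 at day 1 (60.3 against 55.5), in Id2 cells (70.2 against 60.4) and in GFP cells (87.6 against 76.5).

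Grin1, for the obligatory subunit, had a lower summed level and a lower median cell after kainate than in control cells at both times. Single day 1 cells ran from 0 to 657 CPM with a median of 75.8, day 14 cells from 0.602 to 1631 with a median of 113.4, and control cells from 0 to 1416 with a median of 218. The groups overlapped over most of their range, and the quartiles of the cells were 4.09 and 257 CPM at day 1, 70.1 and 182 CPM at day 14, and 58.98 and 384 CPM in control cells. Summed over cells, Grin1 stood at 163 CPM at day 1 (exact Poisson interval 162 to 165, for counting error only), at 210 CPM at day 14 (208 to 212) and at 300.4 CPM in control cells (296 to 305). That is 1.84-fold lower at day 1 and 1.43-fold lower at day 14, or log2 ratios of -0.87 and -0.51. As a mean over cells thinned to 100000 reads each, the log2 ratios were -0.71 and -0.07, so little difference remained at day 14. At day 14 every one of the 29 cells had a read of Grin1, against 81.03% of day 1 cells (exact Clopper-Pearson interval 68.6% to 90.1%) and 83.9% of control cells (66.3% to 94.5%). With each cell thinned to 100000 reads the shares were 93.1% at day 14, 68.97% at day 1 and 79.3% in control cells, and the intervals of the 3 groups overlap. Day 14 exceeded day 1 by 0.36 on the log2 scale, and 1 day 14 library with 1631 CPM of Grin1 and 1461 CPM of Gad2 held 20.4% of the group's Grin1 reads. Without that library the log2 ratio of day 14 to day 1 was 0.07, and that of day 14 to control -0.80.

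Grin2a, for the GluN2A subunit, was the subunit gene with the largest log2 ratio at day 14, and its median cell was low at both times. Day 1 cells ran from 0 to 1076 CPM with a median of 40.99, day 14 cells from 0 to 724 with a median of 36.5, and control cells from 0 to 3417 with a median of 254. The median cell of both kainate groups thus lay below the lower quartile of the control cells, which was 71.5 CPM, although the ranges overlapped. Summed over cells, Grin2a stood at 183 CPM at day 1 (interval 181 to 184), 116.998 CPM at day 14 (115.7 to 118.3) and 263 CPM in control cells (259 to 267). This made it 1.44-fold lower at day 1 (log2 ratio -0.52) and 2.25-fold lower at day 14 (-1.16). A read of Grin2a was found in 72.4% of day 1 cells, 72.4% of day 14 cells and 83.9% of control cells. At equal depth these shares were 56.9%, 72.4% and 79.3%. A single day 1 library with 917 CPM held 20.1% of that group's Grin2a reads, and a single day 14 library with 581 CPM held 27.9%. Without this day 14 library, which also carried 19509 CPM of microglia markers, Grin2a at day 14 was lower than in control cells by a log2 ratio of -1.55.

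Grin2b, for the GluN2B subunit, had reads in over 90% of the cells of each group. Day 1 cells ran from 0 to 906 CPM with a median of 141, day 14 cells from 0 to 999 with a median of 84.2, and control cells from 0 to 1888 with a median of 214. Summed over cells it stood at 268 CPM at day 1 (interval 267 to 269.7), 157 CPM at day 14 (155 to 158) and 283 CPM in control cells (279 to 287). The sums thus differed little at day 1 (log2 ratio -0.08), while at day 14 Grin2b was 1.81-fold lower (-0.85). The day 1 value depends on how cells are weighted. It was -0.74 as a mean over cells, -0.89 with cells thinned to equal depth, and 0.32 against the control cells titled J alone. Reads of Grin2b were found in 94.8%, 93.1% and 90.3% of day 1, day 14 and control cells.

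The number of members past 2-fold was set beside that of all measured genes. To be counted as measured, a gene had to have a read in 20% or more of the cells and a level of 5 CPM or more in at least 1 of the groups compared, which 4 of the 6 members met in each kainate comparison. Grin2c and Grin3a did not. Grin2d met the share of cells in the kainate groups only, at 22.4% at day 1, 24.1% at day 14 and 12.9% in control cells. At equal depth these shares were 18.97%, 20.7% and 13.8%. Kainate cells had more reads per cell than control cells, and the effect of this on the filter over all genes was not tested. At day 1, 0 of the 4 measured members were at least 2-fold lower than in control cells, against 15.2% of 9079 measured genes. Also, 0 were at least 2-fold higher, against 23.2%. At day 14, only Grin2a was at least 2-fold lower, against 15.8% of 9469 genes, and 0 were at least 2-fold higher, against 23.8%. Between day 14 and day 1, 0 members passed 2-fold in either direction, against 16.6% of 9823 genes lower and 17.4% higher. The median log2 ratio of the 4 members, with Grin2d at 0.04 and 0.55 among them, was -0.30 at day 1 and -0.68 at day 14. That of all measured genes was 0.17 and 0.14. Both comparisons use the same control cells and so are not independent. The number past 2-fold varied with the way cells were combined, to 2 at day 1 and 2 at day 14 as a mean or median over cells or at equal depth. Grin2a at day 14 fell short of 2-fold against the control cells titled J alone (-0.94) and with failing libraries added (-0.98).

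**Figure D2:**
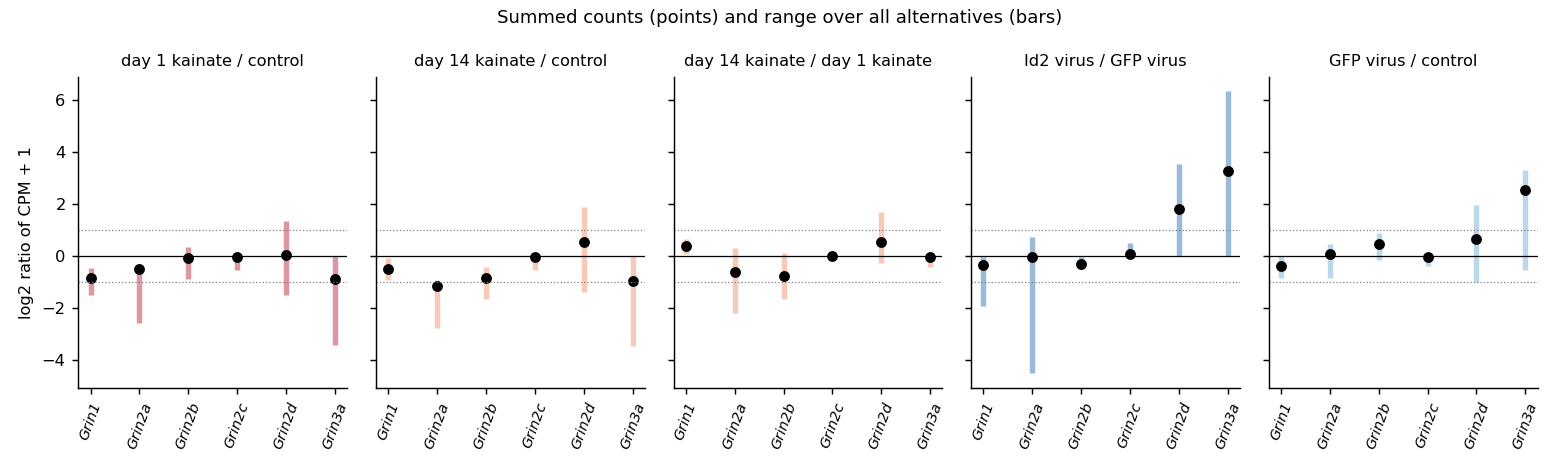
Log2 ratio of CPM + 1 for each subunit gene in the 5 comparisons (black points, summed counts), with bars from the lowest to the highest value over all alternatives and dotted lines at 2-fold. In both kainate comparisons with control cells the whole bars of Grin1 and Grin2a lie below 0, whereas those of Grin2d cross it.

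The direction of Grin1 and Grin2a against control cells was shared by all 17 alternatives at each day. Among them are the removal of cells rich in microglia markers and the use of GFP cells in place of control cells. The alternatives reuse the same cells, and some, such as the change of filter, could not alter these ratios. Their number is therefore no measure of support. The log2 ratio of Grin1 ranged from -1.51 to -0.46 at day 1 and from -0.94 to -0.07 (at equal depth) at day 14. That of Grin2a ranged from -2.60 to -0.30 at day 1 and from -2.77 to -0.94 at day 14. Grin2b was lower at day 14 in all 17 alternatives (-1.66 to -0.45), and lower in 13 and higher in 4 at day 1. The microglia markers were 2-fold lower or more at day 1 for 11 of 12 measured genes, and 2-fold higher or more at day 14 for 6 of 13. In the 9 day 14 and 14 control cells under 1000 CPM of microglia markers, the log2 ratio at day 14 was -0.55 for Grin1, -2.67 for Grin2a and -1.66 for Grin2b. In all cells it was -0.51, -1.16 and -0.85 in the same order. The part of microglial RNA in these differences was not tested. In the 50 day 1 cells and the same control cells it was -1.19 for Grin1, -0.48 for Grin2a and 0.02 for Grin2b. Granule cell markers were also lower after kainate, with 7 of 13 measured genes at least 2-fold lower at day 1 and 6 of 13 at day 14, and their part in the result was not tested. Without the libraries at 10 CPM or more of Gad2 and Slc32a1, the log2 ratio was -0.88 for Grin1, -0.44 for Grin2a and -0.00 for Grin2b at day 1, and -0.71, -1.48 and -0.64 at day 14.

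Reads of Grin2d and Grin3a came from a minority of cells. A read of Grin2d was found in 13 of 58 day 1 cells, 7 of 29 day 14 cells, 4 of 31 control cells, 14 of 71 Id2 cells and 8 of 59 GFP cells. The median cell of every group had 0 CPM, and the highest cells had 140 CPM at day 1, 165 at day 14, 898 in controls, 666 with Id2 and 406 with GFP. Most cells with a read stood at 10 CPM or more, at 10 of the 13 day 1 cells, 5 of the 7 day 14 cells, 3 of the 4 control cells, 11 of the 14 Id2 cells and 6 of the 8 GFP cells. Summed levels of Grin2d were 12.9 CPM at day 1, 18.7 at day 14 and 12.5 in control cells, with log2 ratios of 0.04 and 0.55 against control. A single control library held 64.8% of the control reads, and without it the 2 ratios were 1.35 and 1.86, while as a mean over cells they were -1.22 and -1.09. No direction can be read from them. In the virus experiment Grin2d summed to 72.4 CPM with Id2 and 19.97 CPM with GFP, a log2 ratio of 1.81 that was above 0 in 15 of 16 alternatives and 0 in the median cell. A single Id2 library held 43.7% of the Id2 reads, and without it the ratio was 1.06. Grin2d had reads in too few cells to count as measured there.

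**Figure D3:**
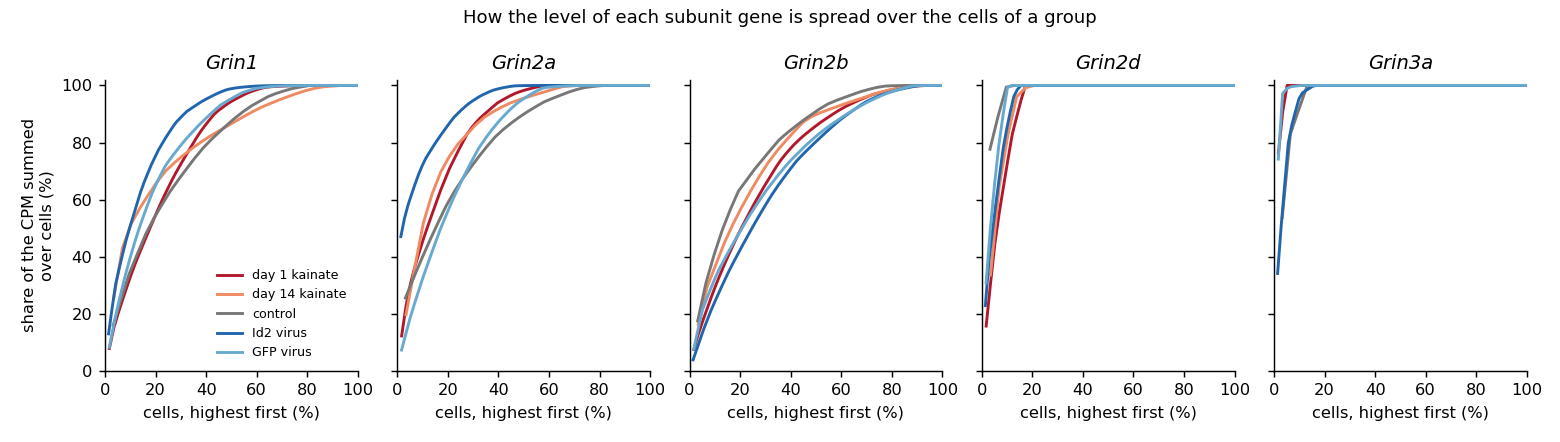
Cumulated share of a gene's CPM summed over cells, as cells are added from the highest down, for 5 subunit genes and each group with a read. Grin2d and Grin3a reach nearly their whole level within the first 20% of cells of each group, while Grin2b needs most of the cells.

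Grin3a had next to no reads in the kainate experiment, with 17 reads at day 1 (3 of 58 cells), 0 at day 14 and 64 in control cells (5 of 31 cells). The exact Poisson interval of the 0 reads at day 14 reaches up to 0.0142 CPM. In the virus experiment it reached 106.8 CPM in Id2 cells (28429 reads) and 10.2 CPM in GFP cells (2261 reads). These levels came from few cells, 14 of 71 with Id2, where the highest cell stood at 1605 CPM and the next at 782, and 7 of 59 with GFP, where the highest stood at 403 CPM and the next at 124.998. At least 10 CPM were found in 11 Id2 cells and 2 GFP cells. A single Id2 library held 58.3% of the Id2 reads and a single GFP library 96.7% of the GFP reads. At equal depth a read was found in 15.5% of Id2 cells (exact Clopper-Pearson interval 7.996% to 26.03%) and 6.78% of GFP cells (1.88% to 16.5%), intervals that overlap. Grin3a was too sparse to count as measured in any comparison. Grin2c, the cerebellar subunit gene, had 0 reads at day 1 and at day 14, 3 in control cells, 14 in Id2 cells and 2 in GFP cells. For the 0 reads of Grin2c at day 1 this interval reaches up to 0.00794 CPM.

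**Figure D4:**
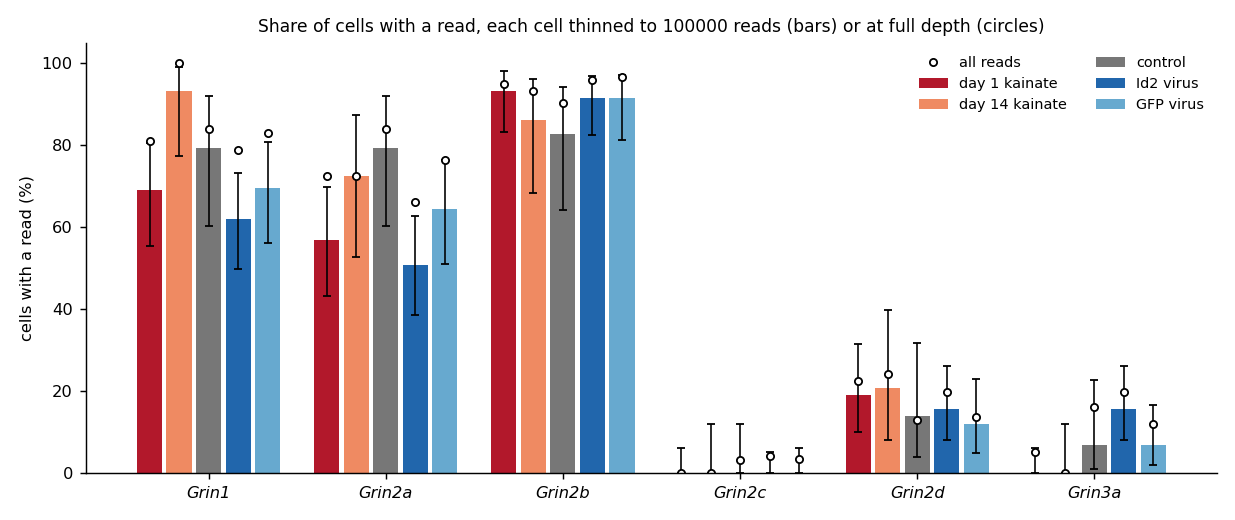
Share of cells with a read of each gene, after each cell was thinned to 100000 reads (bars, with exact 95% Clopper-Pearson intervals for cells as independent draws) and at full depth (circles). The intervals of the groups overlap for Grin2b and Grin2d. For Grin3a the interval of day 1 cells (0% to 6.16%) lies below that of Id2 cells (7.996% to 26.03%). Grin1 at day 14 (93.1%) stands above day 1 (68.97%), with intervals that overlap.

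Between Id2 cells and GFP cells the summed levels of the 3 main subunit genes were close. Grin1 ran from 0 to 1809 CPM with a median of 30.1 in Id2 cells, and from 0 to 1144 with a median of 118.7 in GFP cells. Its summed level was 178 CPM with Id2 (interval 176 to 179.5) and 225 CPM with GFP (223 to 227), a log2 ratio of -0.34. Grin2b ran from 0 to 963 CPM with a median of 295 in Id2 cells, and from 0 to 1800 with a median of 305 in GFP cells. It summed to 312 CPM with Id2 and 389.7 CPM with GFP (-0.32). Grin1 and Grin2b were lower with Id2 in all 16 alternatives, which here too reuse the same cells. The log2 ratio ranged from -1.94 (median over cells) to -0.04 for Grin1 and from -0.53 to -0.04 for Grin2b. Of the 3 measured members, 0 were at least 2-fold lower, against 12.6% of 7846 measured genes, and 0 at least 2-fold higher, against 10.2%.

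Grin2a differed between Id2 and GFP cells in the median cell and far less in the sum. The median cell held 6.08 CPM with Id2 and 162 CPM with GFP, while the summed levels were 265 and 278 CPM (log2 ratio -0.07). A read was found in 66.2% of Id2 cells and 76.3% of GFP cells, and at equal depth in 50.7% (38.6% to 62.8%) and 64.4% (50.9% to 76.4%), intervals that overlap. A single Id2 library at 11876 CPM held 29.4% of the Id2 reads of Grin2a. This library had 6.87 CPM of granule cell markers and 1809 CPM of Grin1, the highest of its group. Of the 11 interneuron markers it had 2790 CPM of Cck, a peptide gene, and 0 of Gad2 and Slc32a1, while Cck also had reads in 78.9% of Id2 cells and 84.7% of GFP cells. Without it the summed ratio was -0.56. The cells carry 2 sets of titles. In the first set (titles up to 95) the median was 3.17 CPM in 43 Id2 cells and 213 CPM in 43 GFP cells. In the second (higher title numbers) it was 9.75 CPM in 28 Id2 cells and 14.7 CPM in 16 GFP cells, so most of the difference in medians lay in the first set. The summed log2 ratio was -0.05 in the first set, which holds the library at 11876 CPM, and -0.79 without that library (168 CPM with Id2 and 291 CPM with GFP). In the second set it was 0.03, and between -0.29 and 0.34 as each library was left out.

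GFP cells and control cells are 2 groups without kainate or Id2, though GFP cells had received a virus 1 month before. They also differ in their series of titles and in microglia markers, at 175 CPM in GFP and 3515 CPM in control cells. The summed log2 ratio of GFP to control cells was -0.41 for Grin1, 0.08 for Grin2a and 0.46 for Grin2b. Over the alternatives it ranged from -0.87 to -0.01, from -0.85 to 0.45 and from -0.15 to 0.86 in the same order. The median cell held 118.7 CPM of Grin1 with GFP, 113.4 CPM at day 14 and 218 CPM in control cells. Of the 3 measured members, 0 were at least 2-fold lower, against 13% of 8085 genes, and 0 at least 2-fold higher, against 19.3%. The size of the difference in Grin1 between GFP and control cells is thus near that between day 14 and control cells (-0.51), and the value at day 14 with GFP cells in place of control cells was -0.10.

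The balance of Grin2a and Grin2b within a cell was widely spread. Summed over cells, Grin2a made up 40.5% of the reads of the pair at day 1, 42.8% at day 14, 48.1% in control cells, 45.9% in Id2 cells and 41.6% in GFP cells. Per kb of exon its share was 48.5%, 50.9%, 56.2%, 54.1% and 49.7% in the same order. Per kb of coding sequence it was 40.8%, 43.1%, 48.4%, 46.2% and 41.9%, so the leading gene depends on the length used. The shares that follow are of reads. Among cells with at least 20 reads of the pair, the share ran from 0% to 91.4% at day 1 with a median of 24.8% (55 cells), from 0% to 100% at day 14 with a median of 36.6% (28 cells), and from 0% to 100% in control cells with a median of 50.5% (26 cells). It ran from 0% to 100% in Id2 cells with a median of 5.35% (66 cells) and from 0% to 99.7% in GFP cells with a median of 32.2% (56 cells). Cells with under 10% Grin2a numbered 25 of 55 at day 1, 7 of 28 at day 14, 2 of 26 in control cells, 35 of 66 with Id2 and 21 of 56 with GFP. Cells with Grin2b reads but none of Grin2a were more numerous than the reverse, at 13 against 0 at day 1, 7 against 1 at day 14, 3 against 1 in control cells, 23 against 2 with Id2 and 13 against 1 with GFP. Reads of the obligatory subunit Grin1 together with at least 1 of the pair were found at equal depth in 67.2% of day 1 cells, 89.7% of day 14 cells, 75.9% of control cells, 62.0% of Id2 cells and 69.5% of GFP cells.

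**Figure D5:**
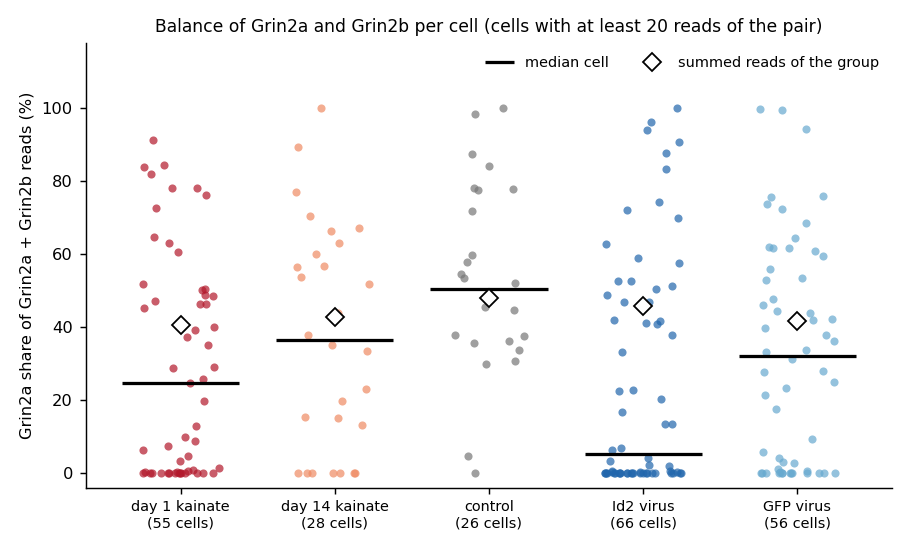
Share of Grin2a in the reads of Grin2a and Grin2b for each cell with at least 20 such reads, with black lines at the median cell and diamonds at the summed reads of the group. The median of Id2 cells (5.35%) lies far below their summed share (45.9%), and 2 of 26 control cells lie under 10%.

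Over the 248 cells, the levels of the subunit genes moved together only weakly. With group means removed, Spearman's rho of log2(CPM + 1) was 0.25 between Grin2a and Grin2b, 0.16 between Grin1 and Grin2b and 0.06 between Grin1 and Grin2a. Their rho with reads per cell lay between -0.06 and 0.08. Among 2953 genes with a read in at least 50% of cells, those most alike to Grin1 included Npcd (0.30) and Jph4, a junctophilin (0.30). For Grin2a they were Scn2b, a sodium channel subunit (0.31), Stk16 (0.29) and Stmn4 (0.28). For Grin2b they were 2900055J20Rik (0.42), the RNA-binding protein gene Celf2 (0.40) and Jmjd1c (0.40). These values describe cells that share library preparation and depth, and none is large. Grin3b stood apart, with a rho of 0.93 to Tmem259, whose exons cover 1059 bases (32.1%) of its exons on the opposite strand. No source used here gives the counting strand, so Grin3b reads may belong to either gene, and its 10.1 to 18.1 CPM are uncertain. On the same ground 13.5% of the exon bases of Grin1 overlap the antisense gene Grin1os and 9.66% of those of Grin2d overlap Gm45441.

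Other genes of the excitatory synapse were set against control cells in the same way. Of all measured genes, 15.2% were at least 2-fold lower and 23.2% higher at day 1, and 15.8% lower and 23.8% higher at day 14, and the counts of the lists stand beside these shares. Of 9 AMPA and kainate receptor genes, the other ionotropic glutamate receptors, 8 were measured in both kainate comparisons. At day 1, 2 were at least 2-fold lower and 0 higher, with a median log2 ratio of -0.82, and at day 14, 4 were lower and 1 higher, with a median of -1.15. The kainate receptor gene Grik2 stood at 72.4 CPM at day 1, 56.0 CPM at day 14 and 203 CPM in control cells, and Grik3 at 10.5, 0.569 and 45.3 CPM. For Grik3 the median cell held 0 CPM in each of these groups, with reads in 10.3%, 3.45% and 29.0% of cells. Both genes were also lower in GFP cells, which had no kainate, at 97.1 CPM for Grik2 and 12.5 CPM for Grik3. Of 8 genes of this list measured in GFP against control cells, 3 were at least 2-fold lower and 0 higher. The shares of all measured genes there were 13% and 19.3%. The AMPA receptor gene Gria4 was higher at day 14, at 164.7 CPM against 31.5 CPM in control cells. Its median cell held 54.8 and 0 CPM, with reads in 58.6% and 9.68% of cells. Of 13 postsynaptic scaffold genes, 1 was at least 2-fold lower and 5 at least 2-fold higher at day 1 (13 measured), and 2 and 1 at day 14 (12 measured). Shank1, a scaffold that links receptor complexes to the cytoskeleton, stood at 263 CPM at day 1, 84.8 CPM at day 14 and 40.1 CPM in control cells. Dlg4, which encodes the NMDA receptor anchor PSD-95, stood at 4.38 CPM at day 1 and 13.5 CPM in control cells. Its median cell was low in both groups, at 0.520 and 1.17 CPM, and reads were found in 70.7% and 54.8% of cells. Against day 1, 4 of 13 scaffold genes were at least 2-fold lower at day 14 and 0 higher, beside 16.6% and 17.4% of all measured genes, with Shank1 and Dlgap3, the gene of a scaffold protein of the same complex (4.11 against 29.6 CPM), among them.

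Genes that carry or tune the receptor held some of the largest ratios of these lists. Kif17, the kinesin that transports GluN2B vesicles along dendrites, stood at 34.5 CPM at day 1, 35.1 CPM at day 14 and 3.80 CPM in control cells. It also stood at 1.29 CPM in Id2 cells and 60.5 CPM in GFP cells. The log2 ratio of GFP cells to control cells was 3.68, above those of day 1 (2.89) and day 14 (2.91). The median cell held 1.28 CPM of Kif17 at day 1 and 0 in each other group. Reads were found in 58.6% of day 1 cells, 34.5% of day 14 cells and 16.1% of control cells. Of the 13 measured partners of this list, 2 were at least 2-fold lower and 3 higher at day 1, and 0 and 3 at day 14, beside the shares of all genes above (15.2% lower and 23.2% higher at day 1, 15.8% and 23.8% at day 14). The 2 lower at day 1 were Ephb2, a receptor tyrosine kinase, at 0.816 CPM against 11.8 CPM in control cells, and Lin7b, a gene of a scaffold protein, at 17.99 against 93.7 CPM. Ptpn5, the phosphatase STEP that acts on tyrosines of GluN2B, stood at 546 CPM at day 1, 487 CPM at day 14 and 76.8 CPM in control cells, with reads in 86.2%, 89.7% and 29.0% of cells. Prkcb, a protein kinase C gene, stood at 584 CPM at day 1 and 82.97 CPM in control cells. Of 18 measured kinase and phosphatase genes, 5 were at least 2-fold lower and 5 higher at day 1, and 3 and 4 at day 14. Among genes that make or clear the co-agonists, Psat1, a step of serine synthesis, stood at 107.9 CPM at day 1, 108.4 CPM at day 14 and 3.42 CPM in control cells, and Shmt2, which interconverts serine and glycine in mitochondria, at 64.2, 33.1 and 1.503 CPM. The median cell held 0 CPM of either gene in all 3 groups. Reads were found in 48.3%, 41.4% and 9.68% of cells for Psat1 and in 32.8%, 27.6% and 6.45% for Shmt2. In this list 2 of 7 measured genes were at least 2-fold lower and 3 higher at day 1, and 2 and 3 of 6 at day 14.

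The same lists were counted in Id2 cells against GFP cells, where 12.6% of all measured genes were at least 2-fold lower and 10.2% higher. Of 7 AMPA and kainate receptor genes 0 were lower and 1 higher, and of 13 scaffold genes 3 were lower and 1 higher. Homer1, a scaffold that ties NMDA receptor complexes to metabotropic glutamate receptors, stood at 424 CPM with Id2 and 1107 CPM with GFP, and Dlg4 at 4.06 and 10.5 CPM. The median cell held 0 CPM of Dlg4 with Id2 and 0.640 CPM with GFP. Of 12 receptor partners 1 was lower and 2 were higher, and of 17 kinase and phosphatase genes 2 were lower and 2 higher, with Prkcb at 54.2 CPM with Id2 and 141 CPM with GFP. Phgdh, the first step of serine synthesis, stood at 213 CPM with Id2 and 20.3 CPM with GFP, with reads in 45.1% and 11.9% of cells. It was the only one of the 3 measured co-agonist genes past 2-fold.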

How the data were processed

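Per the labels' protocols, cytosol of single cells was taken with a patch pipette and libraries were made with Nextera XT. Per the submitters' processing notes, Trimmomatic, STAR, featureCounts and GRCm38 were used. Versions, strand setting and the quality control rule are stated in no source used here. The authors deposited raw counts for 291 cells and, for 252 cells, a scaled signal equal to the counts times 1 factor per cell. The names of the 2 tables point the other way, so the units were settled on the values. Of 304 labelled samples, 13 without a column were not analysed here, 39 failing libraries served only as an alternative, and 2 cells of the other side and 2 libraries labelled low_DG, which match control cells, were left out.

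Counts were summed per group with Python 3.11.15 (numpy 2.4.6, pandas 2.3.3, scipy 1.17.1, matplotlib 3.10.9) and scaled to CPM. Log2 ratios were taken after adding 1 CPM, and folds come from CPM without it. Intervals, at 95%, are exact Poisson for counts and exact Clopper-Pearson for shares of cells. Reads carry no stated molecular identifier, and intervals cover counting error only. No label names an animal, so no p-value was computed. The ratio steps were tested on simulated data. Transcript models came from GENCODE and promoters from RefSeq. The members and gene lists were chosen with earlier results of these data known. Besides the members and Grin3b, genes were named by size of log2 ratio, up to 3 per list and comparison, and by likeness over cells, 3 per member. A gene named by these rules and a pair of sequences are not reported here. Depth ranged from 32487 to 27708910 reads per cell. Alternatives changed how cells were combined, the scaling, the 1 CPM, the filter and which cells entered, and 3 of them, which leave out libraries by granule cell or inhibitory markers or 1 at a time within a set of titles, were added after seeing the data.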

Additional observations from a re-analysis of the deposited data

Results flagged for a closer look

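Libraries labelled as failing the quality control were outside every comparison, and 3 values in them had a counting interval wholly above that of passing control cells. Grin3a stood at 167 CPM over 16 failing Id2 libraries, from 1 cell, while passing Id2 cells stood at 106.8 CPM and passing control cells at 0.953 CPM. Grin2a stood at 1180 CPM and Grin2b at 443 CPM over 7 failing GFP libraries, each from 3 cells, while passing GFP cells stood at 278 and 389.7 CPM and passing control cells at 263 and 283 CPM. The failing GFP libraries had a median of 916834 reads per cell. For these 3 values, passing cells of the same groups also had counting intervals wholly above those of control cells. The flag is thus not particular to failing libraries, and such intervals do not cover the spread between libraries.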

How the results depend on the processing

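The number of members at least 2-fold apart moved with the processing. Grin2d passed 2-fold in both directions against control cells, at day 1 with -1.22 as a mean over cells and 1.35 without 1 control library, and at day 14 with -1.09 as a mean and 1.38 against control cells with other titles than J. At day 1 against control cells it was 0. It was 2 as a mean over cells, 2 as a median over cells, 2 at equal depth and 2 without the cells rich in microglia markers, 3 with the scaled signal, and 1 with median-of-ratios size factors, 1 without the deepest 10% of cells and 1 against control cells with other titles than J. Leaving out each cell in turn gave 0 to 1. At day 14 against control cells it was 1. It was 2 as a mean, 2 as a median, 2 at equal depth, 2 with the scaled signal, 2 without the cells rich in microglia markers and 2 with GFP cells as the control, 3 against the other-titled control cells (2 lower and 1 higher), and 0 against J-titled control cells and 0 with failing libraries added, where Grin2a stood at -0.94 and -0.98. Leaving out each cell in turn gave 1 to 2. At day 14 against day 1 it was 0. It was 3 without the cells rich in microglia markers (2 lower and 1 higher) and 1 without libraries at 10 CPM or more of Gad2 and Slc32a1, with 0 to 1 as each cell was left out. For Id2 against GFP it was 0, but 2 as a median over cells (both lower) and 2 with no filter on low values (both higher, Grin2d and Grin3a). For GFP against control it was 0, and 1 with no filter. The cause of these differences was not tested. Size factors moved the median log2 ratio of all measured genes to 0.03 at day 1, 0.04 at day 14 and -0.02 for GFP against control, in place of 0.17, 0.14 and 0.13, and Grin1 at day 1 then stood at -1.03. No paired analysis was possible because no label names an animal and the numbers in the titles do not match across groups. At equal depth Grin2b at day 1 stood at -0.89 in place of -0.08, and 2 control cells fell under 100000 reads.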

Other observations

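The 2 cells taken from the other side of the hippocampus 1 day after kainate entered no comparison. They held 25.9 and 309 CPM of Grin1, 132 and 212 CPM of Grin2a, and 264 and 299.5 CPM of Grin2b, and neither had a read of Grin2c, Grin2d or Grin3a.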
